A study of Arabidopsis thaliana with 71 samples.

Results

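Expansins and xyloglucan endotransglucosylase/hydrolases (XTH) are wall proteins that let plant cells enlarge. Their genes were followed in Arabidopsis thaliana seedlings of 5 lines over 4 times of dexamethasone treatment. The set was a list of 41 loci of the expansin A, expansin B and XTH families, from which XTH22 (TCH4) was left out. Members were kept when their highest group mean reached 1 FPKM. These FPKM are fragments scaled to transcript length and to a factor for each library. The filter left 39 of the 41, of 19406 genes that passed it. The 39 were 19 expansins and 20 XTH genes. The 2 members under the filter were EXPA12, whose highest group mean was 0.602 FPKM, and EXPA2, whose highest was 0.242 FPKM and which was listed at 0 in libraries of most groups. EXPB1 was the 1 kept member with a group mean under 1 FPKM in some group.

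Expansins loosen the wall at acid pH without cutting its polymers, and the alpha-expansins (EXPA) and beta-expansins (EXPB) are separate families. XTH enzymes cut xyloglucan, a hemicellulose that lies between cellulose microfibrils, and join the cut end to another chain or to water. Members of XTH group III-A act mainly as hydrolases, while groups I/II and III-B act mainly as transferases. Organ polarity and meristem regulators shape where and when cells grow, and these wall genes lie at the far end of that control.

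Each line was in the Columbia ecotype. The first 4 lines carried a transcriptional regulator fused to GR, the steroid-binding part of the glucocorticoid receptor, through which dexamethasone lets the fused protein enter the nucleus. GR-AS2 held the leaf regulator AS2 (Asymmetric Leaves 2), and GR-STM the meristem homeodomain protein STM (SHOOT MERISTEMLESS) of the KNOX family. GR-REV held REVOLUTA, a class III homeodomain-leucine zipper protein that marks the upper side of leaves. GR-KAN1 held KANADI1, a GARP-family protein that marks the lower side, and WT was the wild type. Seedlings were grown for 7 days in shaken liquid medium, all received 50 µM dexamethasone, and whole seedlings were frozen at 0, 30, 60 or 120 min after its addition. WT had 6 libraries at each time. Each fusion line had 3, except GR-REV at 30 min with 2, which makes 71 libraries described as biological replicates. The labels name no promoter for the fusions, do not say whether a line is 1 clone, and for GR-KAN1 give the fusion in both orders. No group received a mock treatment, so an effect of handling or of the steroid is removed only through the WT time course.

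The fused gene was far higher in its own line than in WT at all times. AS2 lay between 120 and 425 FPKM in GR-AS2 and reached 6.34 FPKM at most in WT. STM lay between 66.7 and 342 FPKM in GR-STM and between 2.05 and 4.02 FPKM in WT. REV lay between 46.1 and 168 FPKM in GR-REV and between 1.80 and 5.75 FPKM in WT, and KAN1 between 99.4 and 462 FPKM in GR-KAN1 and between 1.73 and 3.79 FPKM in WT. The deposited values hold no read totals, so depth per library is unknown. All fusion libraries and WT replicates 1 to 3 carried 1 series of library codes, while WT replicates 4 to 6 carried 2 other series. These 2 series went largely with time. WT replicates 4 to 6 were all in 1 of them at 0 and 60 min, all in the other at 120 min, and in both at the remaining time. The model had the code series as a covariate. With it, these replicates add less to the WT change from 0 to 120 min than to that from 0 to 60 min. A call that was lost within the first series alone is named as lost, or given with its adjusted p there, beside its result. The 5 libraries that lay furthest out on the main axis of the residual variation, which held 15.1% of it, were replicate 1 of GR-AS2 at 0 min, replicate 3 of GR-AS2 at 60 min, and replicates 2, 3 and 3 of GR-STM, GR-REV and GR-KAN1 at 0 min.

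A member was called when limma's moderated test, run over all genes on log2(FPKM + 0.5), gave a Benjamini-Hochberg adjusted p under 0.05 (two-sided). Differences below are on that scale, which understates changes of weakly expressed genes. Whether the libraries of compared groups overlap is described for members only. The share of all genes without overlap was not counted. Overlap rests on the same values as the calls and adds no support to them. Of the 39 members, 19 were called in at least 1 of 24 comparisons, 10 expansins and 9 XTH genes. That is 48.7% of the members, beside 26.1% of all genes tested, and since the list was drawn up with results known nothing is read from the gap. The 39 calls comprised 22 positive and 17 negative differences. In 8 of these calls, on 5 members, the adjusted p stayed under 0.05 under all 8 alternative settings and with each replicate of the compared groups left out. All 8 were differences from WT at 120 min. Within the first code series 17 of the 39 calls were kept, 2 of them between fusion lines that lie wholly in that series.

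Those 5 members were EXPA1, EXPA11, XTH24, XTH27 and XTH32. The promoters of EXPA1, EXPA11 and XTH32 are shown as the letters before genes with such calls, and they do not stand for the motif content of the other two. Each runs from 250 bases before to 50 bases after the annotated gene start (RefSeq, TAIR10.1), written 5′ to 3′ on the gene's strand, with capitals for any match to a motif searched. EXPA1 is on chromosome 1 at chr1:26141476-26141775, plus strand. EXPA11 is at chr1:6999790-7000089, minus strand. XTH32 is at chr2:15474779-15475078, minus strand.
EXPA1: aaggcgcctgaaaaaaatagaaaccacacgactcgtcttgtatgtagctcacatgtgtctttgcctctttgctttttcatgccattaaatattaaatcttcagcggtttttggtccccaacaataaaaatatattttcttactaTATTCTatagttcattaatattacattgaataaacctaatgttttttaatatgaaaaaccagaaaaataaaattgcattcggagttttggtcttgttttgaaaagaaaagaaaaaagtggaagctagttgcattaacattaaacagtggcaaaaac
EXPA11: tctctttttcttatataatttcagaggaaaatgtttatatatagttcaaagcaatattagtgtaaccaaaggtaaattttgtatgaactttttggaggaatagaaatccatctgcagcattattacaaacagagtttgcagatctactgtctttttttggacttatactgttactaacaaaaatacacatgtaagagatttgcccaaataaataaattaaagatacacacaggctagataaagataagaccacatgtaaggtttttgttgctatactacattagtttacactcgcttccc
XTH32: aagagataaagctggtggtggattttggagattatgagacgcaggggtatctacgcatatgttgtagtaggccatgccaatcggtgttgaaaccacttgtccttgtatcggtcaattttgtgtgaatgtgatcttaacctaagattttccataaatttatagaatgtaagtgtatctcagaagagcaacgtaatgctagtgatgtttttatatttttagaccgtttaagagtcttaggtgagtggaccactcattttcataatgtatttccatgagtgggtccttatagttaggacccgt
In EXPA1 the capitals mark a KANADI core (AGAATA, here on the opposite strand) at bases -106 to -101 from the start. No match lay in the EXPA11 or XTH32 window. Both strands were searched, and matches are a description of letters, not of binding. Over 27443 promoters of the same length, the homeodomain-leucine zipper core (AATNATT) was in 33.8%, against 15 of the 39 members (38.5%), and the KANADI core was in 25.6% of promoters and in 10 members (25.6%). The auxin response element (TGTCTC) was in 6 members (15.4%) and in 14.2% of all promoters. The KNOX core (TGACAG) was in 1 member, EXPA20, and in 7.0% of all promoters, and the G-box (CACGTG) was in 0 members and in 7.68% of all promoters.

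At 0 min in WT the most abundant members were XTH genes. XTH4, a xyloglucan transferase of growing tissue, averaged 423 ± 194 FPKM (SD, n = 6). XTH31, of the hydrolytic group III-A, averaged 281 ± 147 FPKM, and XTH7, XTH9 and XTH8 averaged 221 ± 91.7, 134 ± 45.6 and 123 ± 55.0 FPKM. These 5 were the members with a mean of at least 100 FPKM, and their libraries overlapped from each neighbour to the next. The leading expansins were EXPA6 at 93.4 ± 33.1 FPKM, EXPA1 at 79.6 ± 17.8 FPKM, EXPA3 at 76.4 ± 16.9 FPKM, the beta-expansin EXPB3 at 70.3 ± 17.6 FPKM and EXPA4 at 43.8 ± 12.4 FPKM. A further 14 members were under 10 FPKM and 20 lay between 10 and 100 FPKM. The lowest kept members were EXPA20 (1.97 ± 0.564 FPKM), XTH20 (2.27 ± 0.734 FPKM) and EXPB1 (2.35 ± 0.851 FPKM). FPKM is a level per transcript length, so these levels can be set against each other.

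**Figure D1:**
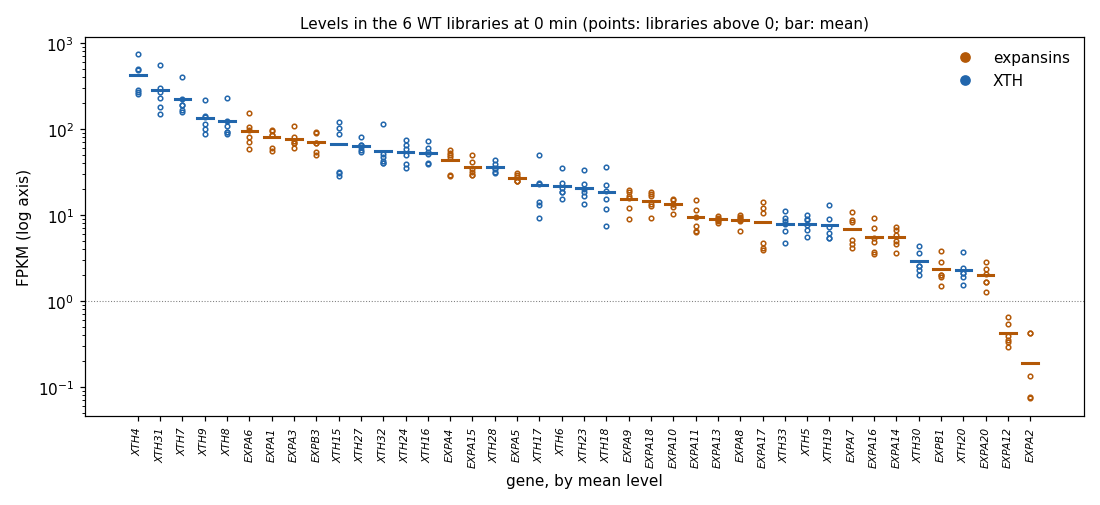
FPKM of all 41 listed genes in the 6 WT libraries at 0 min, on a log axis, with a point for each library above 0 and a bar at the mean; the dotted line marks 1 FPKM. XTH4 leads at a mean of 423 FPKM, and the 2 genes under the line in their means are EXPA12 and EXPA2.

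The ratio of the highest to the lowest group mean over the 20 groups of line and time had a median of 2.95 over the kept members. EXPA13 varied least, at a ratio of 1.44, and XTH24 most, at 18.9. EXPA11 (9.19), XTH27 (8.95), XTH32 (7.19) and EXPA8 (6.70) followed XTH24. XTH4 and XTH31, the most abundant members, had ratios under that median. XTH4, XTH31, XTH8, EXPA4 and EXPB3 were called in no comparison.

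No member passed the threshold over the dexamethasone time course in WT. Against 0 min, limma called 0 members at 30, 60 and 120 min, where it called 0.0567%, 0.0258% and 0.067% of all genes. Members with an unadjusted p below 0.05 numbered 4, 0 and 4. XTH20, a group I/II gene, had the largest shift, 0.87 ± 0.25 at 30 min and 0.80 ± 0.27 at 120 min (log2 difference ± SE, n = 6 against 6), with adjusted p of 0.349 and 0.383. Part of each group of 6 lay in code series that went largely with time. With the covariate, fewer than 6 libraries per group in effect carry the 120 min change. Under the alternative settings limma also called 0 members at each time.

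**Figure D2:**
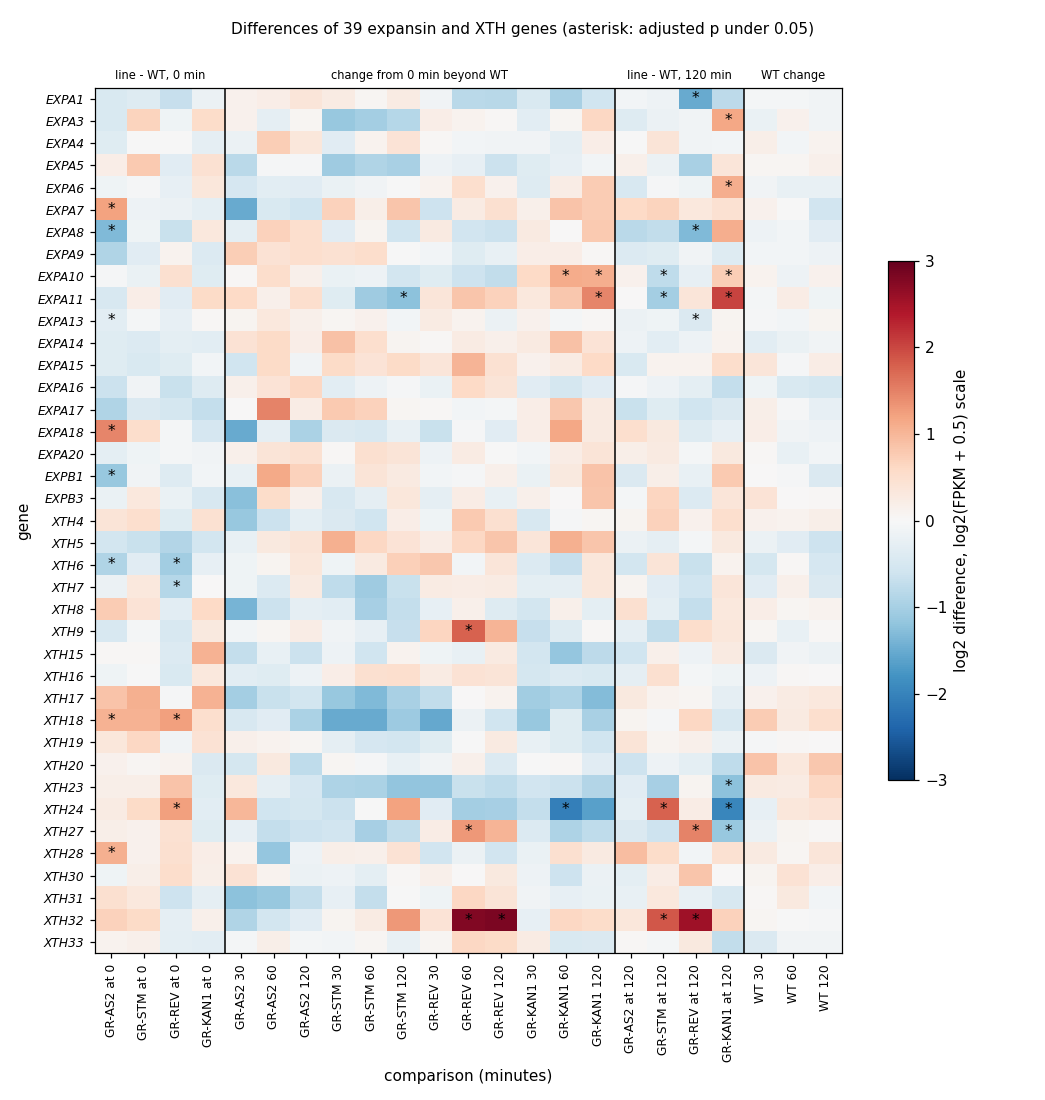
log2 difference of each of the 39 kept genes in 23 comparisons, in 4 blocks: fusion line minus WT at 0 min, change from 0 min beyond the change in WT, fusion line minus WT at 120 min, and the WT time course. Red is higher and blue lower, colours end at 3 and -3, and an asterisk marks an adjusted p under 0.05; XTH32 in GR-REV has the deepest red and the WT columns hold no asterisk.

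The smallest adjusted p of any member belonged to EXPA11 in GR-KAN1. EXPA11 (AT1G20190) is an alpha-expansin, on chromosome 1 at 6998335 to 6999839. Its level in GR-KAN1 was 17.8, 15.2 and 16.4 FPKM at 0 min, 18.0, 20.2 and 21.2 FPKM at 30 min, 41.6, 30.0 and 31.7 FPKM at 60 min, and 51.0, 46.4 and 31.9 FPKM at 120 min. In WT the lowest, median and highest of 6 libraries were 6.24, 8.46 and 14.9 FPKM at 0 min and 8.31, 10.5 and 15.8 FPKM at 120 min. All GR-KAN1 libraries at 120 min lay above all WT libraries, and so did those at 0 min. The difference from WT at 120 min was 2.02 ± 0.23 (log2 ± SE, n = 3 against 6, limma adjusted p = 6.91e-09), and 1.92 within the first code series. At 0 min it was 0.57 ± 0.22, with an adjusted p of 0.383. The change from 0 to 120 min exceeded that in WT by 1.46 ± 0.32 (adjusted p = 0.00823); without the code series covariate the excess was no longer called (adjusted p = 0.138), and likewise without GR-KAN1 120 min replicate 1 (adjusted p = 0.055).

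EXPA11 went the other way in GR-STM. It measured 16.2, 9.26 and 13.5 FPKM at 0 min, 11.4, 9.66 and 7.28 FPKM at 30 min, 5.80, 6.08 and 9.04 FPKM at 60 min, and 4.65, 5.19 and 4.23 FPKM at 120 min. All 3 libraries at 120 min lay under the lowest WT library, at 8.31 FPKM. The difference from WT was -1.02 ± 0.23 (n = 3 against 6, limma adjusted p = 0.00278), and it was kept within the first code series (adjusted p = 0.00367). Its change beyond WT at 120 min was -1.23 ± 0.32 (adjusted p = 0.042), and it was the only member called for a change beyond WT in GR-STM at 30, 60 or 120 min, where 0.144%, 0.876% and 0.819% of all genes were called. That last call was lost within the first code series (-1.23, adjusted p = 0.125) and in 12 of 18 fits with 1 library left out, in which the difference ranged between -1.44 and -1.06. The GR-STM and GR-KAN1 differences share the same WT libraries, and the difference between those lines was not itself tested. In GR-AS2 and GR-REV the means at 120 min were 10.2 ± 1.64 and 13.0 ± 1.08 FPKM (SD, n = 3 each), against 11.1 ± 2.84 FPKM in WT (n = 6).

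EXPA10 (AT1G26770), another alpha-expansin, was called in the same directions as EXPA11 in these lines. In GR-KAN1 it measured 12.2, 9.63 and 7.89 FPKM at 0 min, 19.7, 15.6 and 24.1 FPKM at 60 min, and 17.5, 20.2 and 36.7 FPKM at 120 min. WT libraries lay between 10.4 and 15.5 FPKM at 120 min, with a median of 12.7 FPKM, so the groups did not overlap then. The change beyond WT was 1.11 ± 0.26 at 60 min (limma adjusted p = 0.0166) and 1.10 ± 0.28 at 120 min (adjusted p = 0.038), and the difference from WT at 120 min was 0.73 ± 0.20 (adjusted p = 0.0191). These calls were lost within the first code series, where the values were 1.02, 0.96 and 0.69, and with only the groups compared in the fit. With 1 library left out they were lost in 3 of 18, 9 of 18 and 2 of 9 fits (limma adjusted p up to 0.0996, 0.265 and 0.334). Replicate 3 of GR-KAN1 at the time in question was among the libraries whose omission lost each call. In GR-STM at 120 min EXPA10 measured 11.0, 7.23 and 6.53 FPKM, the first of which lay within the WT range, and the difference from WT was -0.76 ± 0.20 (adjusted p = 0.0197; 0.222 at most with 1 library left out).

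In GR-REV the level of EXPA10 was 16.4, 14.6 and 24.8 FPKM at 0 min and 12.5, 11.3 and 11.6 FPKM at 120 min. Its change over 120 min was thus lower in GR-REV than in GR-KAN1, by -1.83 ± 0.31 (limma adjusted p = 9.18e-05), where 2.67% of all genes were called between those changes. All 4 groups lie in the first code series. The call was lost (adjusted p = 0.0665) when only the 4 groups compared entered the fit.

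**Figure D3:**
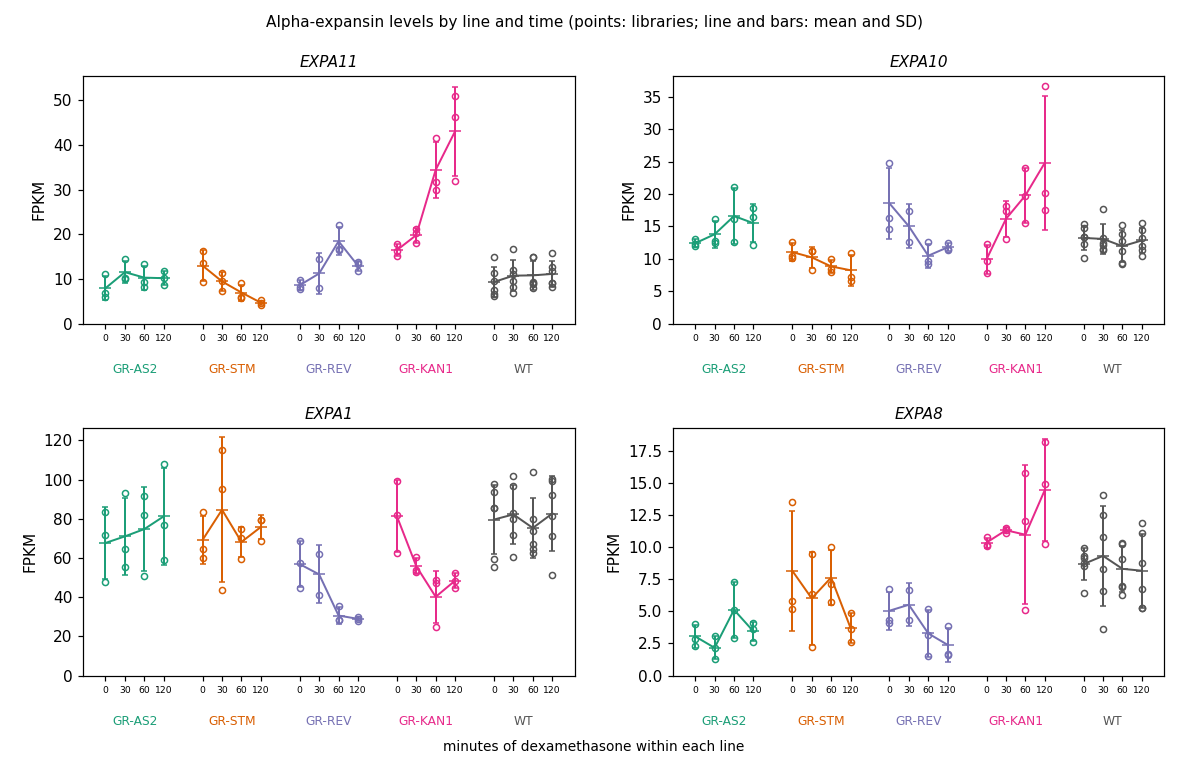
FPKM of EXPA11, EXPA10, EXPA1 and EXPA8 in every library, at 0, 30, 60 and 120 min of dexamethasone within each line; points are libraries, lines and bars the mean and SD (n = 3, 2 for GR-REV at 30 min, 6 for WT). EXPA11 reaches 51.0 FPKM in GR-KAN1 and falls under the WT points in GR-STM at 120 min, and the GR-REV points of EXPA1 at 120 min lie under all WT points.

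In GR-KAN1 at 120 min limma called 4 expansins higher and 0 lower than in WT, of 19, and 0 XTH genes higher and 3 lower, of 20, where 5.27% of all genes were called, 2.35% higher and 2.92% lower. The other 2 expansins were EXPA6 (AT2G28950) and EXPA3 (AT2G37640), both abundant in WT. Neither was called for a change beyond WT. EXPA6 measured 273, 226 and 132 FPKM in GR-KAN1, and 58.8, 79.5 and 118 FPKM as the lowest, median and highest in WT. The difference was 1.09 ± 0.30 (adjusted p = 0.0179). EXPA3 measured 172, 176 and 82.2 FPKM in GR-KAN1 against 54.8, 72.0 and 87.8 FPKM in WT, so its replicate 3 fell within the WT range, and the difference was 1.16 ± 0.33 (adjusted p = 0.0251). Within the first code series these differences were 1.03 and 1.04, with adjusted p of 0.077 and 0.0974, and both calls were also lost without GR-KAN1 120 min replicate 1 or 2 (adjusted p up to 0.17 and 0.162). EXPA8, at 18.2, 14.9 and 10.3 FPKM in GR-KAN1 and 5.23 to 11.9 FPKM in WT, was not called (1.10 ± 0.37, adjusted p = 0.0704).

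The expansins called in GR-REV were all lower than in WT at 120 min. At 120 min limma called 0 expansins higher and 3 lower than in WT, where 6.57% of all genes were called, 3.88% higher and 2.69% lower. The median difference was -0.23 over the 19 expansins and 0.01 over all genes. At 0 min the expansin median was already -0.25. The median change of the expansins beyond WT at 120 min was -0.05, and 0 of them were called for it. EXPA1 (AT1G69530), an abundant alpha-expansin known from leaves and guard cells, measured 68.5, 57.3 and 44.7 FPKM at 0 min, 28.1, 28.3 and 35.4 FPKM at 60 min and 29.8, 27.9 and 29.0 FPKM at 120 min in GR-REV. In WT at 120 min it lay between 51.2 and 100.2 FPKM, with a median of 86.7 FPKM. No GR-REV library at 120 min overlapped WT, and the difference was -1.51 ± 0.25 (n = 3 against 6, adjusted p = 1.5e-05), and -1.63 within the first code series. At 0 min it was -0.68 ± 0.24 (adjusted p = 0.0717), and the change beyond WT at 120 min was -0.83 ± 0.35 (adjusted p = 0.421). In GR-KAN1 at 120 min EXPA1 measured 48.3, 44.6 and 52.4 FPKM, and its difference from WT, -0.78 ± 0.25, stood at an adjusted p of 0.052.

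The other expansin calls in GR-REV at 120 min were on more weakly expressed expansins. EXPA8 (AT2G40610) measured 1.64, 3.89 and 1.63 FPKM in GR-REV at 120 min, against 5.23, 7.76 and 11.9 FPKM as the lowest, median and highest in WT. The difference was -1.32 ± 0.37 (adjusted p = 0.0168), and -1.42 within the first code series. EXPA13 (AT3G03220), the member that varied least, measured 7.52, 8.78 and 6.06 FPKM in GR-REV and 9.29, 10.3 and 11.0 FPKM in WT, a difference of -0.43 ± 0.10 (adjusted p = 0.0049). Neither overlapped WT. The EXPA13 call was lost without replicate 3 of GR-REV (adjusted p = 0.174), and EXPA8's without GR-REV replicate 1 or 3 or WT replicate 1 (adjusted p up to 0.14).

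Among the XTH genes, XTH24 differed in opposite directions in GR-STM and GR-KAN1. XTH24 (MERI5, AT4G30270) is a transferase gene first cloned from meristem-enriched tissue, on chromosome 4 at 14819192 to 14820595, next to XTH18 at 5161 bp and XTH19, 1500 bp beyond that. In GR-STM it measured 59.3, 80.0 and 122 FPKM at 0 min, 65.6, 18.0 and 77.9 FPKM at 30 min, 161, 95.1 and 72.4 FPKM at 60 min, and 238, 301 and 230 FPKM at 120 min. In GR-KAN1 it measured 43.9, 48.3 and 41.5 FPKM at 0 min, 26.5, 15.4 and 28.5 FPKM at 30 min, 18.3, 12.9 and 9.45 FPKM at 60 min, and 13.4, 26.3 and 18.5 FPKM at 120 min. The lowest, median and highest in WT were 35.3, 53.9 and 73.5 FPKM at 0 min and 41.1, 64.7 and 96.8 FPKM at 120 min. At 120 min all GR-STM libraries lay above WT and all GR-KAN1 libraries below it.

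The difference of XTH24 from WT at 120 min was 1.77 ± 0.38 in GR-STM (limma adjusted p = 0.0018) and -1.96 ± 0.38 in GR-KAN1 (adjusted p = 0.000345), each with n = 3 against the same 6 WT libraries. Within the first code series the values were 1.78 and -1.95. Its change beyond WT in GR-KAN1 was -2.06 ± 0.50 at 60 min (adjusted p = 0.019; 0.0842 within the first code series and up to 0.0957 with 1 library left out) and -1.63 ± 0.53 at 120 min (adjusted p = 0.162). In GR-STM the change beyond WT at 120 min was 1.20 ± 0.53 (adjusted p = 0.702). Neighbouring XTH18 and XTH19 were called in neither line at 120 min. At 0 min XTH24 was already higher in GR-REV than in WT, at 115, 127 and 153 FPKM in GR-REV, a difference of 1.22 ± 0.37 (adjusted p = 0.0309). That call was lost within the first code series (1.29, adjusted p = 0.0795), in 4 of 8 alternatives in all, and in 4 of 9 fits with 1 library left out. At 120 min GR-REV averaged 88.6 ± 19.2 FPKM and WT 66.7 ± 18.9 FPKM (SD, n = 3 and 6), and the difference was not called.

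XTH32 (AT2G36870), of the hydrolytic group III-A, was the member with the largest positive difference. In GR-REV it measured 79.9, 43.9 and 29.6 FPKM at 0 min, 51.9 and 83.5 FPKM at 30 min, 606, 175 and 321 FPKM at 60 min, and 288, 210 and 584 FPKM at 120 min. In GR-STM it measured 59.9, 112 and 92.5 FPKM at 0 min and 201, 195 and 222 FPKM at 120 min. The lowest, median and highest in WT were 40.0, 44.8 and 113 FPKM at 0 min, 45.4, 50.3 and 58.3 FPKM at 60 min, and 39.8, 57.5 and 76.7 FPKM at 120 min. Neither line overlapped WT at 120 min, and GR-REV did not at 60 min.

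The change of XTH32 in GR-REV beyond WT was 2.79 ± 0.60 at 60 min (limma adjusted p = 0.00564), where 1.18% of all genes were called, and 2.82 ± 0.64 at 120 min (adjusted p = 0.013), where 0.799% were. Both calls were lost within the first code series, where the values were 2.87 and 2.78 with adjusted p of 0.0889 and 0.108. Both were also lost without GR-REV 0 min replicate 3, the earlier without GR-REV 60 min replicate 1 and the later without GR-REV 120 min replicate 3 (adjusted p up to 0.0578 and 0.0995). The difference from WT at 120 min was 2.54 ± 0.46 in GR-REV (adjusted p = 7.76e-05; 2.48 within the first code series). In GR-STM it was 1.87 ± 0.46 (adjusted p = 0.00906), and 1.81 within the first code series with an adjusted p of 0.0657. XTH31, the other member of group III-A, averaged 219 ± 136 FPKM in GR-REV and 255 ± 61.9 FPKM in WT at 120 min (SD, n = 3 and 6), a difference of -0.23 ± 0.42 (adjusted p = 0.847).

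XTH27 (AT2G01850), of group III-B and known from tracheary elements of leaf veins, differed in opposite directions in GR-REV and GR-KAN1. In GR-REV it measured 142, 70.1 and 64.3 FPKM at 0 min, 84.8 and 92.6 FPKM at 30 min, 374, 174 and 175 FPKM at 60 min, and 146, 155 and 259 FPKM at 120 min. In GR-KAN1 it measured 58.2, 51.7 and 38.5 FPKM at 0 min, 27.7, 26.5 and 46.7 FPKM at 30 min, 27.1, 28.9 and 25.0 FPKM at 60 min, and 30.05, 31.9 and 25.7 FPKM at 120 min. WT had 58.0, 71.3 and 83.5 FPKM as its lowest, median and highest at 120 min, below every GR-REV library and above every GR-KAN1 library. The difference from WT was 1.49 ± 0.24 in GR-REV (limma adjusted p = 9.05e-06) and -1.13 ± 0.24 in GR-KAN1 (adjusted p = 0.0012), and 1.45 and -1.16 within the first code series.

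The change of XTH27 over 120 min was higher in GR-REV than in GR-KAN1 by 1.80 ± 0.36 (adjusted p = 0.00123), a comparison that uses no WT library and lies wholly in the first code series. That call was lost (adjusted p = 0.101) when only the 4 groups compared entered the fit. XTH27 and EXPA10 were the 2 members called between those changes, where XTH genes had a median of 0.52 and expansins of -0.39, against 5.1e-06 over all genes. XTH32 stood at 2.27 ± 0.69 with an adjusted p of 0.0614. Beyond WT, the change of XTH27 in GR-REV was 1.31 ± 0.31 at 60 min (adjusted p = 0.0153; 0.264 within the first code series, where the value was 1.14) and 1.03 ± 0.33 at 120 min (adjusted p = 0.172).

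XTH9 (AT4G03210), an abundant group I/II gene of the shoot apex and other young tissue, was called at 60 min in GR-REV. It measured 183, 160 and 66.1 FPKM at 0 min, 201 and 202 FPKM at 30 min, 341, 368 and 383 FPKM at 60 min, and 198, 247 and 346 FPKM at 120 min, while WT at 60 min lay between 81.3 and 173 FPKM with a median of 99.3 FPKM. All 3 GR-REV libraries at 60 min lay above WT. The change beyond WT was 1.76 ± 0.37 (limma adjusted p = 0.00435), and 1.71 within the first code series with an adjusted p of 0.0777. The call was lost without GR-REV 0 min replicate 3 (adjusted p = 0.0827). At 120 min the change beyond WT was 1.01 ± 0.39 (adjusted p = 0.349).

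**Figure D4:**
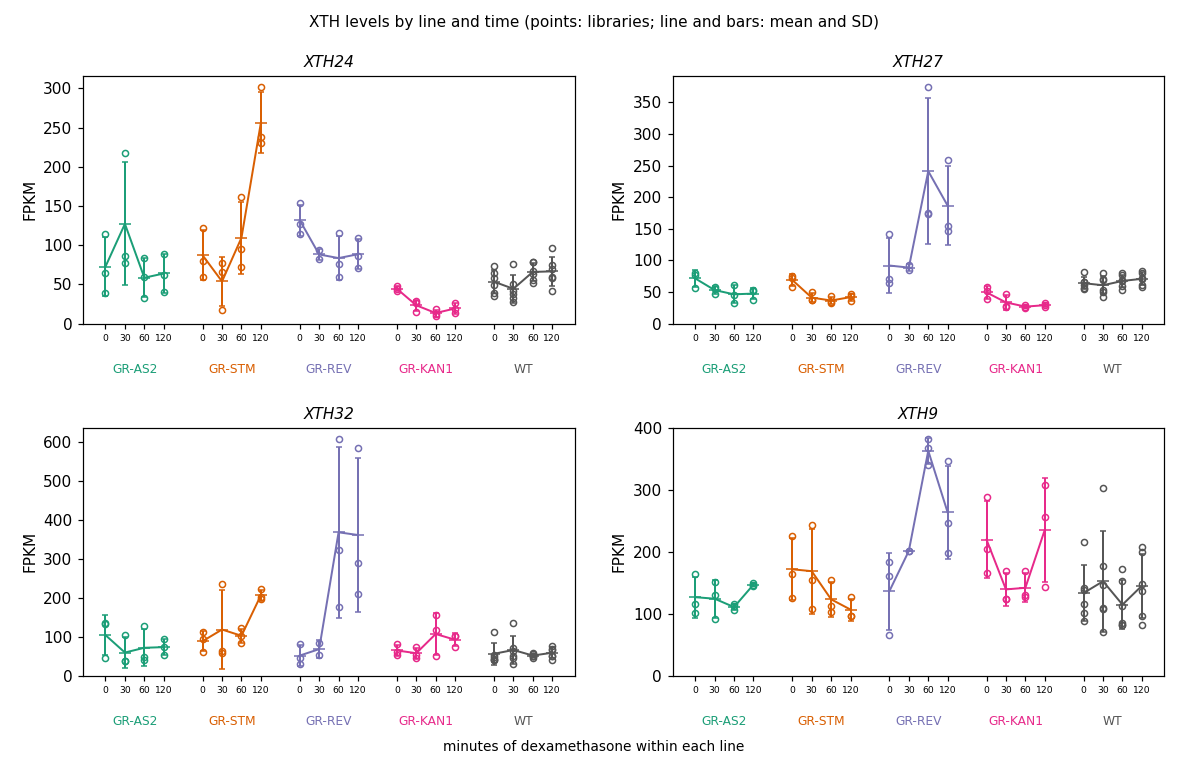
FPKM of XTH24, XTH27, XTH32 and XTH9 in every library, at 0, 30, 60 and 120 min of dexamethasone within each line; points are libraries, lines and bars the mean and SD (n = 3, 2 for GR-REV at 30 min, 6 for WT). XTH24 reaches 301 FPKM in GR-STM and lies under WT in GR-KAN1, XTH27 lies above WT in GR-REV and under it in GR-KAN1, and XTH32 reaches 606 FPKM in GR-REV.

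XTH23 (AT4G25810) completed the XTH calls in GR-KAN1 at 120 min. This group I/II gene is a close relative of the touch-responsive XTH22. It measured 9.30, 10.4 and 21.7 FPKM in GR-KAN1 and 21.9, 28.5 and 35.0 FPKM as the lowest, median and highest in WT, a difference of -1.23 ± 0.32 (limma adjusted p = 0.0127). The highest GR-KAN1 library lay just under the lowest WT library, and the value within the first code series was -1.10 with an adjusted p of 0.0733. XTH23 was not called for a change beyond WT. In GR-STM at 120 min limma called 2 XTH genes higher (XTH24, XTH32) and 2 expansins lower (EXPA11, EXPA10), where 2.96% of all genes were called, 1.89% higher and 1.07% lower.

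Some members already differed at 0 min, when samples were frozen directly after the addition of dexamethasone. In GR-AS2 limma called 4 members higher and 4 lower than in WT, where 10.3% of all genes were called, 4.7% higher and 5.6% lower. In GR-REV it called 2 higher and 2 lower, where 7.81% of all genes were, 4.86% higher and 2.95% lower. In GR-STM and GR-KAN1 it called 0 members, with 5 and 3 at an unadjusted p under 0.05, where 0.33% and 0.742% of all genes were called. Without GR-AS2 0 min replicate 3, 0 of the 8 GR-AS2 calls was left, and without GR-REV 0 min replicate 3, 0 of the 4 GR-REV calls. How many of all genes those fits called was not counted, so the losses are not read as particular to the members. No difference changed sign in them.

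The members higher in GR-AS2 at 0 min included both root hair expansins, EXPA7 (AT1G12560) and EXPA18 (AT1G62980), which loosen the wall where hairs bulge. EXPA18 measured 23.3, 45.5 and 49.8 FPKM in GR-AS2 against 9.22, 14.9 and 18.5 FPKM as the lowest, median and highest in WT, with no overlap. EXPA7 measured 7.08, 18.2 and 19.7 FPKM in GR-AS2 against 4.08, 6.66 and 10.9 FPKM in WT, and its first library lay within the WT range. The differences were 1.45 ± 0.41 and 1.21 ± 0.37 (limma adjusted p = 0.0186 and 0.0295), and 1.33 and 1.05 within the first code series with adjusted p of 0.102 and 0.14. Root hair markers moved beside them, in calls that were not refitted within the first code series. Of 9 tested, PRP3, RHS13, RHS10 and RHS19 were called higher and 0 lower, and the summed level lay between 225 and 506 FPKM in GR-AS2 and between 46.5 and 149 FPKM in WT, with 0 of the 9 listed at 0. Of 10 root markers 9 were tested, with 1 called higher and 0 lower, and 6 differences were positive and 3 negative. The summed level of all 10, with SMB under the filter, lay between 196 and 575 FPKM in GR-AS2 and between 125 and 304 FPKM in WT. In GR-AS2 1 of the 10 was listed at 0 in some library, and in WT 0 were. The part of root or hair amount in these differences was not tested. In RNA from whole seedlings, more cells of a type and more RNA per cell cannot be told apart. At 120 min the differences of EXPA18 and EXPA7 from WT were 0.52 ± 0.42 and 0.61 ± 0.38, with adjusted p of 0.743 and 0.657.

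XTH28 (AT1G14720), a group III-B gene known from stamens, was higher in GR-AS2 at 0 min, at 80.6, 63.9 and 84.6 FPKM against 30.4, 34.9 and 43.5 FPKM as the lowest, median and highest in WT. The difference was 1.07 ± 0.23 (limma adjusted p = 0.00274), and 1.17 within the first code series. At 120 min it measured 106, 75.4 and 83.4 FPKM in GR-AS2, above the WT range of 37.8 to 59.4 FPKM, but the difference of 0.92 ± 0.23 was not called (adjusted p = 0.126). At 60 min, by contrast, GR-AS2 held 31.0, 43.1 and 33.4 FPKM and WT 32.1 to 43.9 FPKM.

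XTH18 (AT4G30280), a root-expressed group I/II gene, measured 31.0, 37.7 and 66.0 FPKM in GR-AS2 and 64.3, 38.7 and 45.6 FPKM in GR-REV at 0 min, against 7.42, 17.2 and 35.6 FPKM in WT. The differences were 1.04 ± 0.34 and 1.22 ± 0.34 (limma adjusted p = 0.0436 and 0.0181), and 0.77 and 0.95 within the first code series with adjusted p of 0.275 and 0.171. GR-AS2 overlapped WT and GR-REV did not. With 1 library left out, the GR-AS2 call was lost in 6 of 9 fits and the GR-REV call in 2 of 9. With replicate number as a block, the XTH18 call in GR-AS2 and the XTH7 call in GR-REV were lost.

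XTH6 (AT5G65730) was lower at 0 min in both lines. It measured 9.54, 13.4 and 15.1 FPKM in GR-AS2 and 12.1, 14.9 and 7.85 FPKM in GR-REV, against 15.3, 19.6 and 35.5 FPKM in WT. The differences were -0.91 ± 0.26 in GR-AS2 and -1.05 ± 0.26 in GR-REV (limma adjusted p = 0.019 and 0.00565). Within the first code series the GR-AS2 call was lost (adjusted p = 0.0854) and the GR-REV call kept (adjusted p = 0.0289). Both comparisons use the same 6 WT libraries. XTH7 (AT4G37800) was lower in GR-REV, at 127, 116 and 113 FPKM against 155 to 402 FPKM in WT (-0.86 ± 0.28, adjusted p = 0.0452; 0.121 within the first code series), where the highest WT library, replicate 2, lay apart from the others.

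The expansins lower in GR-AS2 at 0 min were EXPA8, EXPA13 and EXPB1. EXPA8 measured 2.27, 4.02 and 2.86 FPKM in GR-AS2 against 6.41, 8.97 and 9.93 FPKM as the lowest, median and highest in WT, a difference of -1.32 ± 0.36 (limma adjusted p = 0.0159). EXPB1 (AT2G20750), a beta-expansin, lay between 0.458 and 1.14 FPKM in GR-AS2 against 1.48, 2.02 and 3.82 FPKM in WT, a difference of -1.13 ± 0.35 (adjusted p = 0.0301). EXPA13 differed by -0.33 ± 0.10 (adjusted p = 0.0354), with 7.74, 7.47 and 7.17 FPKM in GR-AS2 against 8.09 to 9.71 FPKM in WT. None of the 3 overlapped WT, which rests on the same values as their calls. Within the first code series EXPA8 alone kept its call (-1.52, limma adjusted p = 0.0417).

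After dexamethasone GR-AS2 had no member called. Its change beyond WT was called for 0 members at 30, 60 and 120 min, with 6, 7 and 0 at an unadjusted p under 0.05, where limma called 0%, 0.0103% and 0% of all genes. At 120 min 0 members differed from WT, with 4 at an unadjusted p under 0.05, where 0.108% of all genes were called. At 30 min 0 members were called for a change beyond WT in GR-STM, GR-REV or GR-KAN1 either, with 6, 3 and 2 at an unadjusted p under 0.05; 0.0412% of all genes were called in GR-REV and 0.067% in GR-KAN1. In GR-KAN1 at 60 and 120 min, 1.05% and 0.83% of all genes were called for a change beyond WT.

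Some members had similar profiles over the 20 group means. As a description, the Pearson correlation of log2 group means was 0.84 for EXPA7 and EXPA18, 0.84 for EXPA5 and XTH7, 0.83 for XTH17 and XTH19, 0.77 for EXPA3 and EXPA6 and 0.75 for EXPA3 and EXPA11. The most opposed pair was EXPA11 and XTH24, at -0.82. Over all 741 pairs the median was 0.03, with 13 pairs above 0.7 and 3 below -0.7. The groups share lines and libraries, so the 20 points are not independent.

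Some genes of the same wall pathways were called beside the members. These calls were not refitted within the first code series, under other settings or with libraries left out. Of 24 tested for cellulose and xyloglucan synthesis, xyloglucan trimming, proton pumps, wall sensing and pectin, limma called 0 higher and 2 lower for a change beyond WT in GR-STM at 60 min. They were XXT1 and CSLC4, a xylosyltransferase and the glucan synthase of the xyloglucan backbone (-0.70 ± 0.17 and -1.21 ± 0.27, adjusted p = 0.0234 and 0.00988). XXT1 was called already at 30 min (-0.88 ± 0.18, adjusted p = 0.0159). In those 2 comparisons 0.876% and 0.144% of all genes were called. THE1, a receptor kinase that senses the wall, was the 1 wall gene called in GR-KAN1 at 60 min beyond WT, where 1.05% of all genes were (-0.84 ± 0.23, adjusted p = 0.0467). At 120 min against WT, where 6.57% of all genes were called in GR-REV, 2.96% in GR-STM and 5.27% in GR-KAN1, CSLC4 was higher in GR-REV (0.68 ± 0.21, adjusted p = 0.0316). XYL1, a xylosidase that trims xyloglucan, was lower in GR-STM (-0.71 ± 0.21, adjusted p = 0.0432) and higher in GR-KAN1 (0.79 ± 0.21, adjusted p = 0.0133). In GR-KAN1 2 of the 24 were lower, the pectin methylesterases PME3 (-1.41 ± 0.18, adjusted p = 1.15e-07) and PME1 (-0.66 ± 0.12, adjusted p = 0.00021). PME3 was also the 1 wall gene called in GR-KAN1 at 120 min beyond WT (-0.97 ± 0.25, adjusted p = 0.0362), where 0.83% of all genes were. Between the changes in GR-REV and GR-KAN1 over 120 min 2 of the 24 were called, CSLC4 and PME1, both higher in GR-REV (adjusted p = 0.0355 and 0.0456), where 2.67% of all genes were called. At 0 min PME3 was higher in GR-REV (0.58 ± 0.17, adjusted p = 0.0283), where 7.81% of all genes were called. The cellulose synthases CESA1 and CESA3 were higher in GR-AS2 at 0 min (0.60 ± 0.20 and 0.83 ± 0.28, adjusted p = 0.0474 and 0.0429), where 10.3% of all genes were called. At 120 min 0 of the 9 root hair, 9 root and 9 photosynthesis markers tested was called in any fusion line against WT. In GR-AS2 0.108% of all genes were called then. Equal tissue make-up is not read from this. Summed root hair markers lay between 95.1 and 203 FPKM in GR-AS2 and between 84.2 and 192 FPKM in GR-STM. They lay between 63.7 and 96.6 FPKM in GR-REV, 57.3 and 115 FPKM in GR-KAN1, and 40.1 and 106 FPKM in WT. In each group 1 photosynthesis marker was listed at 0 in some library.

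The remaining 20 members, 9 expansins and 11 XTH genes, were called in no comparison. Among them EXPA5 in GR-REV at 120 min came closest, with -0.98 ± 0.32 and a limma adjusted p of 0.0531. XTH15, with group means up to 170 FPKM, and the close relatives XTH17 and XTH19 were also among them. How reads that match several relatives were assigned is not stated in the labels or notes, so values of XTH17, XTH18 and XTH19 are uncertain to that degree. In the annotation another gene overlapped 5 of the 41 loci, by 1061 bp for EXPA20, whose partner is a long noncoding RNA gene, 382 bp for XTH15, 61 bp for EXPA2, 46 bp for EXPA18 and 23 bp for EXPA7. Whether strand was used in counting is not given either, so the levels of these genes, EXPA20 foremost, are uncertain.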

How the data were processed

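RNA-seq libraries were made from oligo(dT)-primed cDNA of whole seedlings, per the labels' protocols. The authors deposited 1 table of FPKM values for all 71 libraries, normalized between libraries by the geometric method of Cufflinks, per the series' design text. TopHat2 2.0.10, Cufflinks (version not given in the sources used here) and the TAIR10 build are named in the submitters' processing notes. FPKM holds no read totals. Sums over all rows ran from 925335 to 398875574 FPKM between libraries, while library medians lay between 4.25 and 4.92 FPKM. The cause of the spread in sums was not examined. In 10 pairs of libraries at most 9.85% of genes with values under 0.5 FPKM shared 1 ratio within 0.5%, so whole reads were not recovered and depth is unknown. A listed 0 can be a failed estimate, and libraries held 332 to 1136 genes at 0.

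The table had 22346 rows. The 14 placeholder rows were left out, and 22041 of the 22332 genes matched RefSeq locus tags. Genes with a highest group mean of at least 1 FPKM (19406) were taken as log2(FPKM + 0.5) and fitted with limma 3.58.1 in R 4.3.3 over all 71 libraries. The model had 20 groups and the library code series (59, 7 and 5 libraries) as a covariate, which left 49 residual degrees of freedom. Variances were moderated with a trend, and p-values were adjusted by Benjamini-Hochberg in each of 24 comparisons over all genes. A "change beyond WT" subtracts the WT time course from that of the fusion line, each taken against its 0 min group. Replicate numbers were not used as pairs: the labels tie nothing to them, and same-numbered libraries did not deviate together throughout. Their deviations correlated above 0.1 in 17 of 18 pairs in WT (0.0558 to 0.604) but in 13 of 35 pairs in the fusion lines (-0.386 at the lowest). The deviations were not adjusted for code series, which in WT goes along with replicate number. As computed, these correlations do not tell pairing and code series apart there.

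In each comparison every called member is named where there are 8 or fewer. Beside these, the 5 expansins and 5 XTH genes with the highest mean, EXPA7, EXPA18, XTH31 and XTH32 are named, and others appear in counts and ranges or where a value near a threshold was chosen after it was seen. The members, the other wall gene lists and the markers were chosen with earlier results of these data known. The promoter sequences of XTH24 and XTH27 are not reported here.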

Additional observations from a re-analysis of the deposited data

Results flagged for a closer look

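Among the 156 sets of 6 WT libraries checked (39 genes at 4 times), 14 held 1 library that lay far from the other 5 by Dixon's test at the 95% level. Chance alone gives about 1 in 20 such sets only for independent, normally distributed values. Here FPKM was not log-transformed, and the sets mixed code series and shared libraries, so nothing is read from the number flagged. In 5 of the 14 the outlying library was replicate 2 at 0 min. XTH7 read 402 FPKM there, against 155 to 224 FPKM in the other libraries, XTH8 231 against 87.3 to 125 FPKM, XTH17 49.1 against 9.18 to 23.6 FPKM, XTH31 559 against 151 to 300.2 FPKM and XTH32 113 against 40.0 to 51.4 FPKM. XTH7 at 0 min in GR-REV was no longer called without that library. The call was lost in 6 of 9 fits with 1 library left out, among them those without each GR-REV library. At 30 min the values were EXPA5 at 12.8 FPKM in replicate 1, EXPA10 at 17.7 FPKM in replicate 3, EXPA17 at 20.1 FPKM in replicate 6, XTH15 at 93.0 FPKM in replicate 2 and XTH28 at 80.1 FPKM in replicate 3. At 60 min they were EXPA14 at 10.3 FPKM and EXPA18 at 28.0 FPKM in replicate 4 and XTH18 at 28.8 FPKM in replicate 2, and at 120 min XTH15 at 115 FPKM in replicate 3.

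The change over 120 min differed between fusion lines for 2 members by the test of that difference. It was lower in GR-REV than in GR-KAN1 for EXPA10 (-1.83) and higher for XTH27 (1.80).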

How the results depend on the processing

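Signs of the 39 calls did not turn under any of 8 alternatives or with any library left out. Calls kept numbered 39 with a pseudocount of 1 and with no filter, 35 with no code series covariate, 17 within code series Ot79, 36 after quantile normalization, 15 with only the groups compared in the fit, and 29 without the 5 least typical libraries, an alternative added after seeing the data. Fits on fewer libraries have fewer residual degrees of freedom. Within code series Ot79, GR-AS2 at 0 min had 2 members called (8 in the full fit), GR-REV at 0 min 1 (4), GR-STM at 120 min beyond WT 0 (1), GR-REV at 60 and 120 min beyond WT 0 (3 and 1), GR-KAN1 at 60 and 120 min beyond WT 0 and 1 (2 each), and GR-KAN1 minus WT at 120 min 4 (7). With only the groups compared, counts were 2 for GR-AS2 and 0 for GR-REV at 0 min, 1 for GR-AS2 and GR-STM at 60 min, 0 for GR-STM and GR-REV and 1 for GR-KAN1 at 120 min beyond WT, 1 for GR-KAN1 at 60 min, 4 for GR-KAN1 minus WT at 120 min and 0 between GR-REV and GR-KAN1. With no covariate they were 2 for GR-KAN1 at 0 min, 1 for GR-KAN1 at 120 min beyond WT, 1 for GR-AS2 minus WT and 10 for GR-REV minus WT at 120 min. After quantile normalization they were 2 for GR-STM and 4 for GR-KAN1 at 60 min, 7 for GR-STM minus WT at 120 min and 4 between GR-REV and GR-KAN1. Without the 5 least typical libraries they were 0 for GR-REV at 0 min, 1 and 0 for GR-REV at 60 and 120 min beyond WT, and 1 for GR-KAN1 at both. The cause was not tested. The share of all genes called was not counted in any of the alternative fits. A changed number of members is therefore not read as a result about the members.

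With each replicate left out in turn, counts ranged from 0 to 9 for GR-AS2 and 0 to 4 for GR-REV at 0 min, 0 to 3 for GR-AS2 at 30 min beyond WT, 0 to 2 for GR-STM at 60 min, 0 to 1 for GR-STM at 120 min, 0 to 3 for GR-REV at 60 min, 0 to 2 for GR-REV at 120 min, 0 to 2 for GR-KAN1 at 60 min and 1 to 2 for GR-KAN1 at 120 min. Against WT at 120 min they were 2 to 4 for GR-STM, 4 to 6 for GR-REV and 4 to 8 for GR-KAN1, and 2 to 3 between GR-REV and GR-KAN1. For these fits too, the share of all genes called was not counted.

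With replicate number as a block, 37 of the 39 calls were kept and GR-STM at 60 min beyond WT had 1 member called in place of 0. The numbers pair nothing in the labels, and same-numbered deviations had a median correlation of 0.168 over 53 pairs. In the WT time course the block left 0 members called.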
